A study of Homo sapiens with 64 samples.

Results

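A set of 10 genes that cells raise when oxygen is short were followed on 64 arrays of BEAS-2B cells: PFKFB3, PFKFB4, ANKRD37, VEGFA, ADM, EGLN3, CA9, BNIP3, NDRG1 and SLC2A1. Members were taken by symbol: every probe set of the array whose platform annotation names one of the 10 genes was used. This gave 17 probe sets for 9 of the 10 genes, out of 19775 genes and 41091 probe sets with a single gene symbol. CA9 had no probe set named for it alone and was not analysed here. The members were selected on signals of these same arrays, drug and time comparisons included, with no threshold stated. The calls given below are rows of a fit over all 19775 genes, and they describe these arrays without adding independent support for the choice of genes.

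BEAS-2B is an immortalized line of human bronchial epithelial cells, grown here without serum in keratinocyte medium, with no added growth factors in the final day per the labels. The cells received indacaterol (10 nM, a long-acting beta-adrenoceptor agonist that raises cAMP) together with GSK 256066 (10 nM, an inhibitor of the cAMP-degrading PDE4 enzymes, called GSK below), indacaterol alone, GSK alone, or vehicle. RNA was collected after 1, 2, 6 or 18 h, with 4 replicates in each of the 16 groups. The labels state neither whether replicates were separate cultures nor what oxygen level was used, so p-values measure only the spread between these arrays.

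In most cells these genes are switched on by the hypoxia-inducible factors. Prolyl hydroxylases of the EGLN family use oxygen to mark the factors' alpha subunits for destruction through VHL, and when oxygen is low the stabilized subunits pair with ARNT and bind DNA at a short core, ACGTG or GCGTG. The targets shift metabolism toward glycolysis, promote blood vessel growth and remove mitochondria. Several, VEGFA among them, are also known to respond to growth factors and hormones at normal oxygen. In bronchial epithelium, beta-adrenoceptors act through cAMP, protein kinase A and CREB, which binds TGACGTCA or its half-site TGACG.

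To show which of these letters lie next to the genes, the 250 bases before the RefSeq start site (GRCh38.p14) are printed for 3 members. PFKFB3 and ANKRD37 were the 2 members called as raised against vehicle in the limma fit without a replicate block. BNIP3 was the member with the most hypoxia cores. Capitals mark ACGTG, its reverse complement CACGT, then GCGTG with its reverse complement CACGC, and TGACG with its reverse complement CGTCA. The first pair overlaps in CACGTG. The PFKFB3 stretch is chr10:6144671-6144920 on the plus strand, the ANKRD37 stretch chr4:185396591-185396840 on the plus strand and the BNIP3 stretch chr10:131981924-131982173 on the minus strand.
PFKFB3: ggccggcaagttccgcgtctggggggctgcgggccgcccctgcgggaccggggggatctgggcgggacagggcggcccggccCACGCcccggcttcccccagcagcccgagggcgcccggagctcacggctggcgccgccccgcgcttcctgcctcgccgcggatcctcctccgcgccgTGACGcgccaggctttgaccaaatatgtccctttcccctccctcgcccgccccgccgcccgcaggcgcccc
ANKRD37: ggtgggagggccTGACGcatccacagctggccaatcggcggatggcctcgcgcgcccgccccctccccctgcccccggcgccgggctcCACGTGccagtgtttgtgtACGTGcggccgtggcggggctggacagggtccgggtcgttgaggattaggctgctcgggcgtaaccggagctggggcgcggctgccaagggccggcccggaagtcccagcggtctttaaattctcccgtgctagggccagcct
BNIP3: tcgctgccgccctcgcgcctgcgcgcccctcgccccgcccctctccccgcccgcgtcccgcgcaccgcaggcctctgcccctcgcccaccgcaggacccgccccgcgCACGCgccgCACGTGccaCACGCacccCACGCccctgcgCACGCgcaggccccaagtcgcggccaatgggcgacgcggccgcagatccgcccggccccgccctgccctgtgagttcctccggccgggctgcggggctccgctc
Promoters in the RefSeq table were scanned over 300 bases, 250 before and 50 after the start, and 7 of the 9 measured members had an entry. PFKFB3 had 1 GCGTG core, 168 bases before the start, and 1 TGACG half-site 71 bases before it. ANKRD37 had 3 ACGTG matches, 2 of which overlap, and 1 TGACG, 238 bases before the start. BNIP3 had 2 overlapping ACGTG and 4 GCGTG matches and no TGACG. PFKFB4, ADM and SLC2A1 had 1 GCGTG core each, and EGLN3 had 1 TGACG. None of the 7 held the full TGACGTCA. Of all 27305 promoters in the table, 21.6% held ACGTG, 36.3% GCGTG and 48.4% at least 1 of these cores, and 6828 held TGACG, so these short matches are common. The full TGACGTCA was held by 1.98%. Matches are given as letters only, for 1 start site per gene.

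Values are probe-set signals on the linear scale that the authors deposited. Each gene is represented by its brightest probe set, tests ran on log2(signal + 16), which understates changes of dim genes, and a change was called at an adjusted p under 0.05 by limma. The number of arrays, 4 per group, limits the precision. The median signal of an array ran between 101 and 127, while array maxima differed far more, as given below for replicate 3. Markers of cell type were mixed. Of the simple epithelial keratins, KRT8 (3048 to 6726) and KRT18 (5118 to 9853) were high on all 64 arrays, while KRT19 did not exceed 116 on the 48 arrays outside replicate 3 and EPCAM ran between 28.7 and 248.8. Of 6 fibroblast markers, COL1A1 (5431 to 10841) and PDGFRB (798 to 2539) were high and COL1A2, COL3A1, DCN and LUM did not exceed 243. PTPRC of leukocytes, FOXJ1 of ciliated, SCGB3A1 of secretory and CDH5 of endothelial cells did not exceed 42.4. Other markers on those lists reached higher signals, among them PECAM1 (414 to 699), LYZ (198 to 514), CD14 (24.9 to 289), MUC5AC (127 to 216) and DNAI1 (64.9 to 196). So did CD3E (59.2 to 111), VWF (61.1 to 98.6) and SCGB1A1 (29.5 to 89.8). Signals of different probe sets are not on one scale, and the part of these markers in the results was not tested.

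The 16 arrays numbered replicate 3 stood apart from the other 48. On them the basal keratins were high, with KRT14 between 265824 and 419717 and KRT5 between 30128 and 36669, against 15.1 to 35.3 for KRT14 and 115 to 269 for KRT5 on the other 48 arrays. The top of the scale differed too. The brightest probe set read 265824 to 1.08e+06 on replicate-3 arrays, whereas no probe set exceeded 18914 on the other 48. Array medians overlapped, at 114 to 127 for replicate 3 and 101 to 125 for the rest. The cause of the gap in maxima was not tested. Other markers differed as well. KRT19 (2287 to 4407) and CDH1 (548 to 1432) were higher on replicate-3 arrays, against at most 116 and 440 elsewhere. PDGFRB was lower there, at 798 to 1092 against 1371 to 2539. KRT7 was higher with overlap (3946 to 10450 against 239 to 5370), and KRT8, KRT18, EPCAM and COL1A1 also overlapped. All 16 replicate-3 arrays lay above or below all the other 48 for 3.37% of genes. Of the 9 measured members, 2 were among them. EGLN3, the hydroxylase of the family that is itself a hypoxia target, read 256 to 481 on replicate-3 arrays, against 46.9 to 135 on the rest. ADM, which encodes the vasodilator peptide adrenomedullin, was lower, at 847 to 1471 on replicate-3 arrays against 1532 to 3208 on the rest. SLC2A1 and ANKRD37 were higher on replicate-3 arrays with some overlap: their medians there were 2572 and 551. This split runs through every treatment and time, and its part in the results was not tested beyond the values without replicate 3 given with them.

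**Figure D1:**
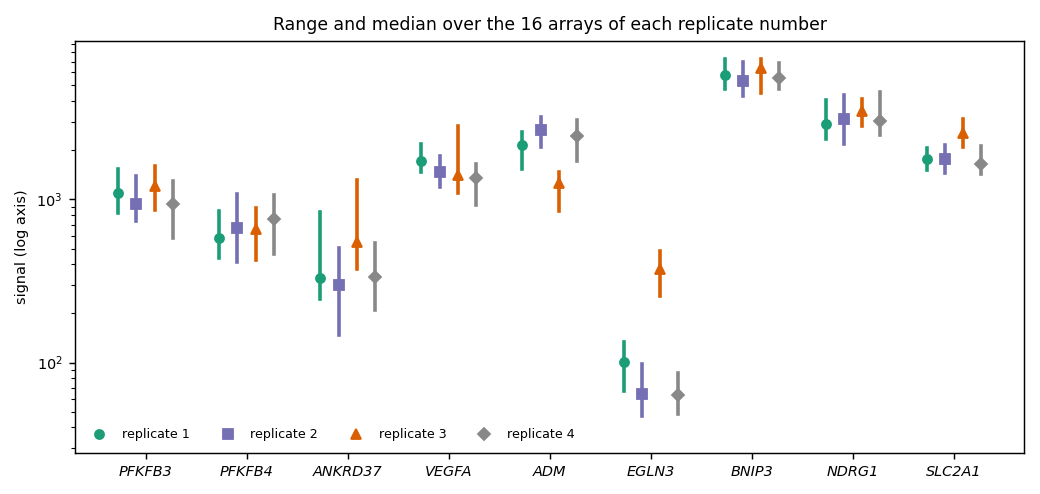
Signal (log axis) of the 9 measured members by replicate number, where markers are medians and lines the range over 16 arrays. Replicate 3 stands clear of the other numbers for EGLN3, above, and for ADM, below, and overlaps them for the rest.

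**Figure D2:**
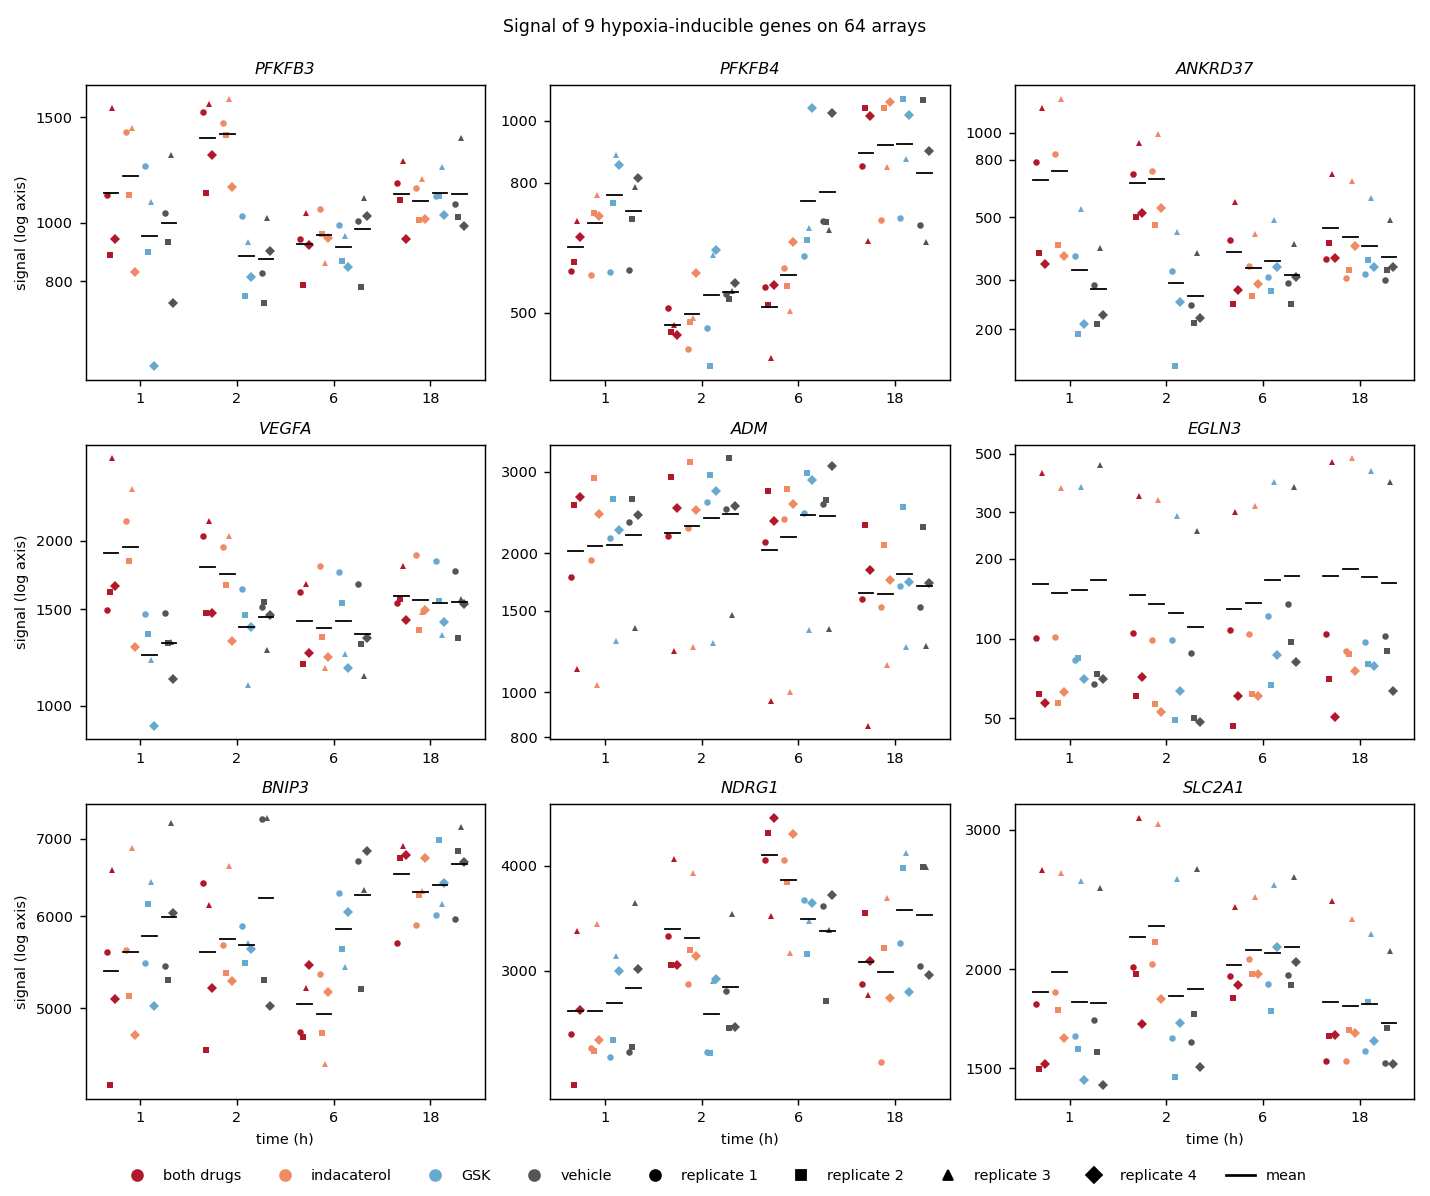
Signal (log axis, a scale of its own in each panel) of 9 members on all 64 arrays by time in hours, with colours for treatment, marker shapes for replicate number and bars for the group mean of 4. PFKFB3 and ANKRD37 are high at 2 h with both drugs and with indacaterol, and lie near vehicle at 6 h.

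In the fit without a replicate block, PFKFB3 and ANKRD37 were the 2 members called as raised by indacaterol, both at 2 h. With the replicate number as a block, ANKRD37 was also called at 1 h, and SLC2A1 was called at 2 h. The indacaterol and vehicle arrays of 2 h did not meet the criterion for pairing given below. PFKFB3 makes and degrades the sugar bisphosphate that activates phosphofructokinase, and is the isoform most tilted toward making it, which drives glycolysis. At 2 h its signal was 1466, 1400.0, 1611 and 1147 on the 4 indacaterol arrays, against 826, 736, 1018 and 899 on the vehicle arrays. All 4 treated arrays lay above all 4 vehicle arrays. The means were 1406 ± 194 with indacaterol and 869.8 ± 119 with vehicle (SD, n = 4 each), a ratio of 1.62, and the log2 change was 0.68 ± 0.17 (SE, adjusted p = 0.0231 by limma). The call was lost without replicate 1 (change 0.64, adjusted p = 0.383) and without replicate 2 (0.61, adjusted p = 0.39), and held without replicate 3 (0.69, adjusted p = 0.0377).

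With both drugs at 2 h, PFKFB3 read 1528, 1123, 1579 and 1299, again above every vehicle array of that time. The mean was 1382 ± 212 with both drugs (SD, n = 4), a log2 change of 0.66 ± 0.17 (SE, adjusted p = 0.0369 by limma) against the same vehicle arrays. This call was lost without replicate 1 (0.58, adjusted p = 0.528), 2 (0.67, adjusted p = 0.253) or 3 (0.67, adjusted p = 0.061). At 1 h the signal was already 1198 on average with indacaterol, against 1000.4 with vehicle, a difference within the spread (change 0.25, adjusted p = 0.902). By 6 h the changes were -0.08 with both drugs and -0.029 with indacaterol, and by 18 h 0.0028 and -0.029.

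ANKRD37, a small ankyrin-repeat protein gene, had larger changes, from 1 h on. At 1 h it read 839.8, 399, 1322 and 365 with indacaterol, against 289, 208, 390.4 and 225 with vehicle. The groups overlapped, because vehicle replicate 3 exceeded indacaterol replicate 4, and replicates 1 and 3 carried the highest values of the treated group. The log2 change was 1.19 ± 0.36 (SE, adjusted p = 0.211 by limma). With the replicate number as a block, which the arrays of this comparison allow, the adjusted p was 9.78e-06. Both drugs gave 785, 372, 1227 and 342 at 1 h, a change of 1.09 (adjusted p = 0.22).

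At 2 h, ANKRD37 stood at 732, 470.3, 988 and 541 on indacaterol arrays, against 245, 211, 374 and 219 on vehicle arrays, with no overlap. The mean was 2.60 times that of vehicle, and the log2 change 1.31 ± 0.36 (SE, n = 4 each, adjusted p = 0.0492 by limma), close to the threshold. Without replicate 3 the change was 1.29 (adjusted p = 0.00365), whereas the call was lost without replicate 1 (0.582), 2 (0.169) or 4 (0.25, all adjusted p). Arrays with both drugs read 715, 503, 923 and 521, also above every vehicle array, a change of 1.28 that missed the threshold (adjusted p = 0.0633) and passed it with the replicate block, which the arrays of this comparison allow (5.44e-07), or without replicate 3 (0.00418). By 6 h the mean was 376 with both drugs and 332 with indacaterol, against 312 with vehicle, differences within the spread. A second ANKRD37 probe set averaged 147 over the 64 arrays and differed by 0.19 with indacaterol at 2 h (adjusted p = 0.945), so the response was seen on 1 of 2 probe sets.

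VEGFA, which encodes the main angiogenic growth factor, was highest with the drugs at 1 h but was not called. It read 1498, 1615, 2835 and 1655 with both drugs, 2176, 1839, 2486 and 1282 with indacaterol and 1477, 1303, 1307 and 1119 with vehicle at 1 h. Every array with both drugs lay above every vehicle array, by little for replicate 1, and the indacaterol arrays overlapped vehicle through replicate 4. The log2 changes were 0.50 ± 0.18 with both drugs (SE, adjusted p = 0.308) and 0.54 with indacaterol (adjusted p = 0.297, both by limma). Without replicate 3 they were 0.29 and 0.41. The other 3 VEGFA probe sets had log2 differences of 0.27 to 0.37 with indacaterol at 1 h, without a call. Their indacaterol arrays read 393 to 488 against 301 to 367 with vehicle, and 194 to 256 against 165 to 191, without overlap. On the remaining set they read 585 to 758 against 514 to 643, with overlap.

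Across the members, indacaterol was called for 0 of 9 at 1 h, 2 at 2 h, 0 at 6 h and 0 at 18 h. Over all genes the same fit called 0.212% at 1 h, 1.2% at 2 h, 0.273% at 6 h and 0.00506% at 18 h. At an unadjusted p under 0.05 the member counts were 2, 2, 2 and 0 at these times, against 1399, 1584, 947 and 875 of all 19775 genes. The median change of the 9 members at 2 h was 0.19, against -0.00018 for all genes. Both drugs were called for 0, 1, 0 and 0 members at 1, 2, 6 and 18 h, against 0.283%, 1.05%, 0.759% and 0.0354% of all genes. An unadjusted p of 0.05 was passed by 2, 2, 3 and 0 members, against 1855, 1329, 1510 and 1032 of all genes. The 2 sets of comparisons share the vehicle arrays. Whether the indacaterol effect itself differed between the 4 times was tested with a moderated F-test, which called 0 members and 0.268% of all genes (adjusted p = 0.778 for PFKFB3 and 0.981 for ANKRD37). With the replicate number as a block, the same test called both (adjusted p = 0.016 for PFKFB3 and 2.76e-04 for ANKRD37), although at 2 h the indacaterol and vehicle arrays did not meet the criterion for pairing. How many of all genes the blocked test called is not given here.

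**Figure D3:**
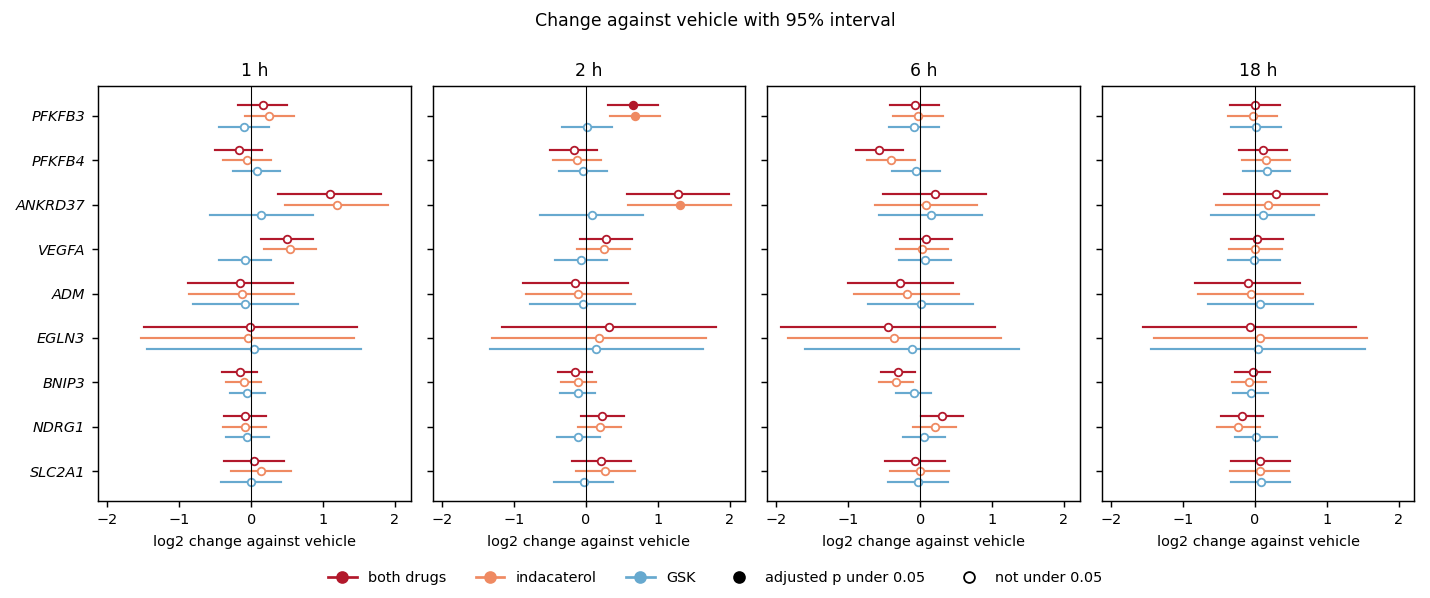
Log2 change against vehicle of the same time for 9 members, with 95% intervals, at 1, 2, 6 and 18 h. Filled points passed an adjusted p of 0.05: PFKFB3 with both drugs and with indacaterol, and ANKRD37 with indacaterol, all at 2 h.

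GSK alone gave member values close to those of vehicle. None of the 9 members was called at 1, 2, 6 or 18 h by limma, and none passed an unadjusted p of 0.05, while 0.00506%, 0%, 0% and 0% of all genes were called (1404, 899, 346 and 704 genes at an unadjusted p under 0.05). At 2 h PFKFB3 read 1026, 756, 931 and 814 with GSK, within the range of the vehicle arrays except for replicate 1, just above it. Its change was 0.019 with a 95% interval of -0.32 to 0.36, and that of ANKRD37 was 0.084 with an interval of -0.63 to 0.80. The upper end of the ANKRD37 interval lies below the 1.31 seen with indacaterol, but the interval is wide.

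Adding GSK to indacaterol gave no detectable difference in the members at this number of arrays. Both drugs minus indacaterol gave a PFKFB3 change of -0.027 at 2 h (95% interval -0.37 to 0.32) and an ANKRD37 change of -0.023 (-0.74 to 0.69). In this comparison 0 members were called at each time and 0 passed an unadjusted p of 0.05, with 0%, 0%, 0% and 0% of all genes called at 1, 2, 6 and 18 h (250, 254, 346 and 306 genes at an unadjusted p under 0.05). The interaction, both drugs minus GSK set against indacaterol minus vehicle, was likewise called for 0 members and for 0%, 0%, 0% and 0% of all genes at 1, 2, 6 and 18 h by limma, with 0 members and 547, 459, 259 and 481 genes at an unadjusted p under 0.05. For PFKFB3 at 2 h it was -0.046 (95% interval -0.53 to 0.44).

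PFKFB4, the isoform best known from testis and tumour cells, lay below vehicle at 6 h on the arrays with indacaterol. It read 548, 514, 425 and 554 with both drugs, against 697, 693, 673 and 1028 with vehicle. The groups did not overlap, and vehicle replicate 4 was far above the other vehicle arrays. The log2 change was -0.57 ± 0.16 (SE, n = 4 each, adjusted p = 0.0906 by limma), and with the replicate block, which the arrays allow, the adjusted p was 0.00505. Indacaterol arrays read 589, 551, 504 and 645, below every vehicle array of that time as well (change -0.41, adjusted p = 0.785). At 18 h the changes were 0.11 and 0.15, with the arrays overlapping. A second, dim PFKFB4 probe set averaged 37.1 with both drugs, 36.3 with indacaterol and 40.4 with vehicle at 6 h. Its arrays overlapped, so the separation at 6 h was seen on 1 of 2 probe sets.

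Without the replicate block, the remaining members gave no call against vehicle. BNIP3, which marks mitochondria for removal, averaged 5038 ± 346 with both drugs and 4941 ± 396 with indacaterol at 6 h, against 6263 ± 741 with vehicle (SD, n = 4 each). The changes were -0.31 and -0.34, with adjusted p of 0.359 and 0.533 by limma. SLC2A1, the basal glucose transporter, averaged 2269 ± 535 with indacaterol at 2 h and 1890.1 ± 533 with vehicle, a change of 0.27 (adjusted p = 0.891). EGLN3 had the widest intervals, with replicate 3 far above the others in each group. Its change with both drugs at 6 h was -0.45 (95% interval -1.93 to 1.03), with an adjusted p of 0.0301 once the replicate number was a block, and 0.0704 with that block once replicate 3 was left out. ADM had a difference of -0.28 with both drugs at 6 h, its furthest from vehicle, and was not called. At 6 h a second BNIP3 probe set averaged 3643 with both drugs, 3832 with indacaterol and 4834 with vehicle. A second EGLN3 set averaged 115 with both drugs and 137 with vehicle at 6 h. For SLC2A1, a dim second set averaged 77.3 with indacaterol and 64.6 with vehicle at 2 h.

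Levels were also followed over time. Within each treatment, 2, 6 and 18 h were set against 1 h, and because the times of a treatment share their 1 h arrays, the 3 changes of a treatment are not independent. The mean of the 4 treatments was also compared between times, a comparison added after the values were seen. Time and anything else that differed between the harvests cannot be told apart.

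**Figure D4:**
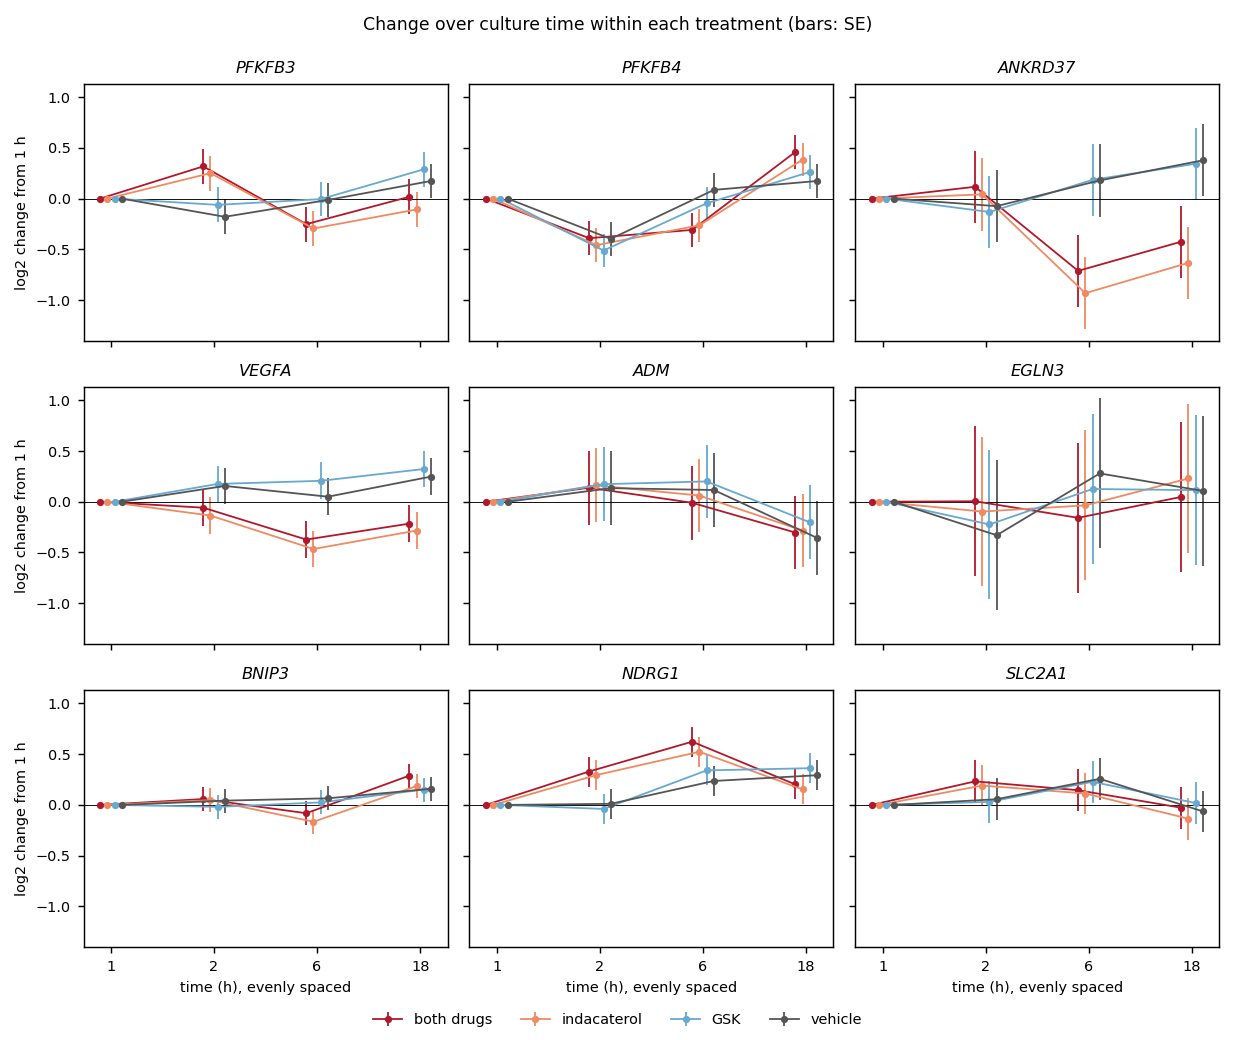
Log2 change from 1 h of the same treatment for 9 members at 1, 2, 6 and 18 h (evenly spaced), with SE as bars and 1 line per treatment. PFKFB4 dips at 2 h in all 4 treatments, NDRG1 is up at 6 h in all 4, and ANKRD37 and VEGFA lie below their 1 h level at 6 h on the 2 lines with indacaterol.

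PFKFB4 dipped at 2 h. Its mean was 479 at 2 h against 634 at 1 h with both drugs, 498 against 691 with indacaterol, 533 against 764 with GSK, and 539.9 against 721 with vehicle. On vehicle arrays the values were 535, 526, 541 and 558 at 2 h, against 584, 701, 787 and 814 at 1 h, with no overlap. The change averaged over treatments was -0.44 ± 0.082 (SE, adjusted p = 1.99e-04 by limma), and it remained called without each replicate in turn. Within single treatments no adjusted p passed: 0.278 with vehicle and 0.263 with GSK. For GSK it was 0.0292 with the replicate block, which these arrays allow. By 18 h PFKFB4 was above its 1 h level, by 0.32 ± 0.082 over the treatments (SE, adjusted p = 0.00297), a call lost without replicate 2 (0.22, adjusted p = 0.167). With both drugs alone the 18 h change was 0.46 (adjusted p = 0.0963). It passed with the block (adjusted p = 0.0129) and when replicate 3 was left out (0.031).

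NDRG1, a stress-induced gene linked to differentiation and the restraint of tumour spread, was higher at 6 h than at 1 h. Its mean was highest at 6 h on arrays with both drugs (4124) and with indacaterol (3851), and at 18 h on arrays with GSK (3547) and with vehicle (3497). Relative to vehicle of the same time, the mean was 1.23 times as high with both drugs and 1.15 times with indacaterol at 6 h. At 18 h the ratios were 0.88 and 0.86. The arrays overlapped in each of these comparisons, and NDRG1 was not called against vehicle. With both drugs it read 4069, 4373, 3489 and 4567 at 6 h, against 2523, 2192, 3347 and 2697 at 1 h. No array overlapped, and the log2 change was 0.62 ± 0.15 (SE, n = 4 each, adjusted p = 0.00676 by limma). With indacaterol the 6 h values were 4065, 3831, 3147 and 4361, against 2429, 2409.8, 3412 and 2484 at 1 h, where replicate 3 ran the other way from the rest. That change was 0.52 (adjusted p = 0.0381). Without replicate 3 the changes were 0.81 with both drugs and 0.74 with indacaterol, while both calls were lost without replicate 1, 2 or 4, with adjusted p between 0.106 and 0.205 for both drugs and between 0.276 and 0.405 for indacaterol. On GSK and vehicle arrays the differences were also positive (0.34 and 0.24, adjusted p = 0.467 and 0.612), and over the 4 treatments the change was 0.43 ± 0.074 (adjusted p = 1.60e-05). At 18 h it was 0.25 over the 4 treatments (adjusted p = 0.00999), a call lost without replicate 1 (adjusted p = 0.0549) or 2 (0.44).

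BNIP3 rose slightly by 18 h, by 0.20 ± 0.059 over the 4 treatments (SE, adjusted p = 0.0131 by limma). The call was lost without replicate 2 (0.215) or 4 (0.231). ADM was lower at 18 h in each treatment, with changes between -0.36 on vehicle arrays and -0.20 on GSK arrays. On vehicle arrays it read 1533, 2278, 1257 and 1720.4 at 18 h, against 2337, 2621, 1374 and 2423 at 1 h, so each replicate number was lower while the groups overlapped. The vehicle change had an adjusted p of 0.937, and 0.0254 with the replicate block, and that with both drugs 0.851 and 0.0406. Averaged over treatments the ADM change was -0.29 (adjusted p = 0.331), and -0.35 without replicate 3 (adjusted p = 0.00274). With the replicate block, which the arrays of every treatment allow at 18 h, the adjusted p was 1.79e-05. SLC2A1 at 6 h behaved likewise: its change of 0.19 over the treatments had an adjusted p of 0.275, 2.71e-05 without replicate 3 and 2.63e-04 with the block. On vehicle arrays alone its change was 0.26 (adjusted p = 0.741, and 0.0397 with the block).

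ANKRD37 and VEGFA were lower at 6 h than at 1 h on the arrays with indacaterol. Against 1 h, ANKRD37 differed by -0.71 with both drugs and -0.93 with indacaterol, and by 0.18 with GSK and 0.18 with vehicle. The first pair had adjusted p of 0.422 and 0.198 by limma, and 0.00387 and 1.58e-04 with the replicate block, which the arrays allow. VEGFA differed by -0.37 with both drugs and -0.47 with indacaterol over the same hours (adjusted p = 0.39 and 0.211, and 0.111 and 0.0364 with the block). At 18 h the indacaterol change of ANKRD37 was -0.63 (adjusted p = 0.516, and 0.0114 with the block), and over the 4 treatments its change at 6 h was -0.32 (adjusted p = 0.279, and 0.00417 with the block). PFKFB3 was not called between times with vehicle: its means were 1000.4, 869.8, 979 and 1118 at 1, 2, 6 and 18 h, with no adjusted p below 0.751 against 1 h.

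In counts, the comparisons with 1 h called 0 of 9 members at 2, 6 and 18 h with vehicle, against 0.192%, 1.21% and 1.58% of all genes by limma. At an unadjusted p under 0.05 there were 1, 0 and 0 members, against 2473, 2237 and 1917 of all genes. With GSK the comparisons with 1 h called 0 members at each time, against 0.0961%, 0.693% and 1.89% of all genes. There 1 member at each time was under an unadjusted 0.05, against 1670, 1565 and 2121 of all genes. Indacaterol gave 0, 1 and 0 members, against 0.516%, 2.66% and 3.24% of all genes, and both drugs gave 0, 1 and 0, against 0.536%, 3.31% and 5.64%. The mean of the 4 treatments gave 1, 1 and 3 members, against 5.47%, 14.5% and 18.5% of all genes, shares of 9 too small to set apart from the background. An F-test that vehicle was the same at all 4 times called 0 members, against 6.65% of all genes. The lowest adjusted p among the members was 0.0705, for PFKFB4. With the replicate block the test called PFKFB4 (adjusted p = 0.00548), ADM (9.21e-04), EGLN3 (0.0029) and SLC2A1 (0.0116), although the vehicle arrays of 1 and 2 h did not meet the criterion for pairing. The 6.65% belongs to the test without the block, and the share of all genes with it is not given here.

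Among themselves, the members did not move as one group. Over the 16 group means, PFKFB3, ANKRD37 and VEGFA ran together (Pearson r 0.88 for PFKFB3 with ANKRD37, 0.77 with VEGFA, and 0.91 between the other pair). PFKFB4 ran with EGLN3 (0.77) and BNIP3 (0.69) and against ADM (-0.60), and over the 36 pairs the median r was -0.055. These correlations describe 16 points that share treatments and times, and the vehicle, drug and time structure enters all of them. On the 64 arrays, with the mean of each group and of each replicate number removed, 3 of 36 pairs had r below 0, and the median was 0.33. The highest was 0.63, for PFKFB4 with SLC2A1, while PFKFB3 and VEGFA had 0.54. All genes of an array share its RNA and its scaling, and the same correlations were not computed for other genes.

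**Figure D5:**
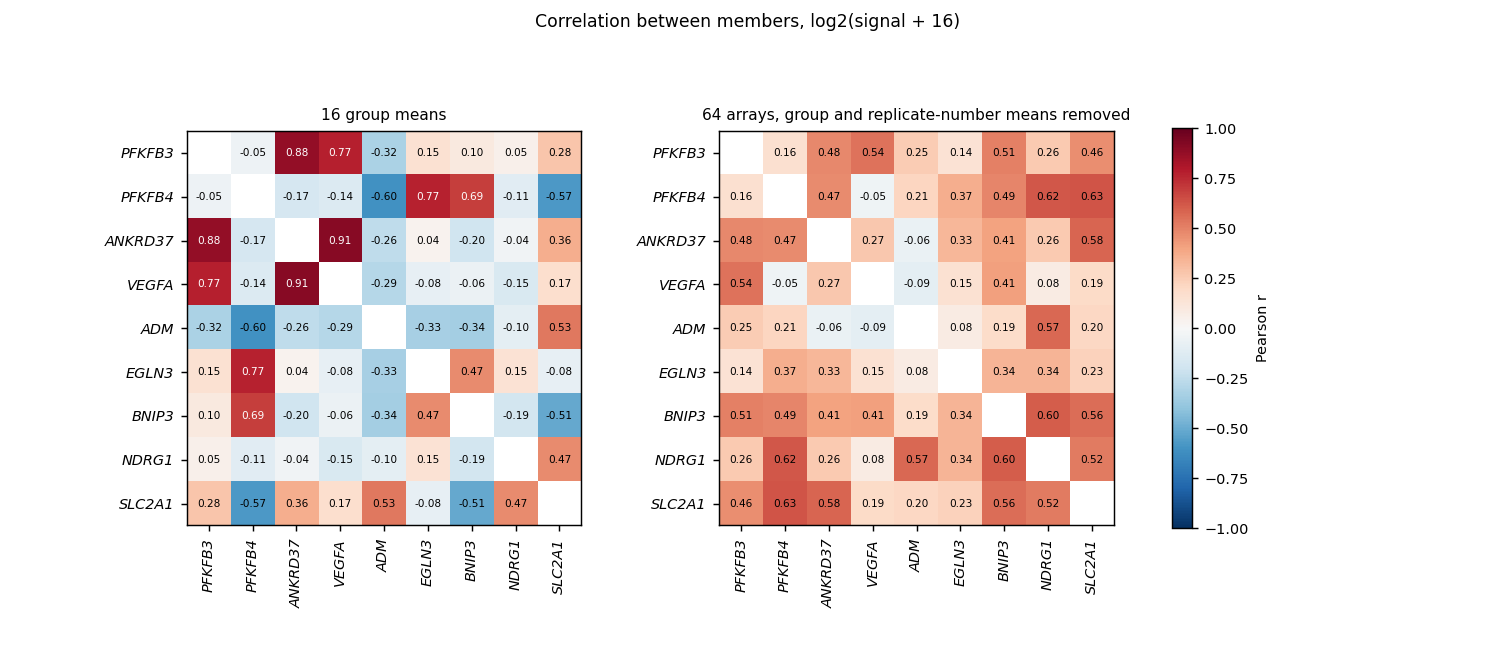
Pearson correlation between members on log2(signal + 16), over 16 group means (left) and over 64 arrays after removing group and replicate-number means (right). PFKFB3, ANKRD37 and VEGFA form the reddest block on the left, at 0.77 to 0.91, and most pairs are weakly positive on the right.

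The genes whose 16 group means were most like those of PFKFB3, among 14047 genes compared, were SLC2A3 (r 0.97), SNRK (0.96), ELAVL2 (0.95), IFFO2 (0.95) and C9orf72 (0.95). ANKRD37 ranked 17th by this measure and VEGFA 98th, and PFKFB4 had r -0.050. SLC2A3, a glucose transporter, averaged 1810 with both drugs and 1906 with indacaterol at 2 h, against 644 with vehicle. Its log2 changes were 1.49 with both drugs (adjusted p = 0.00369 by limma) and 1.55 with indacaterol (adjusted p = 0.00227). SLC2A3 is named here for its likeness to PFKFB3 on these same arrays, so these p-values add no independent support. The indacaterol call was lost without replicate 1, and the call for both drugs without replicate 1 or 4.

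The wider pathway was read through 3 other lists: 19 regulators of the hypoxia-inducible factors, all measured; 25 genes of glycolysis and lactate handling, 23 of them measured; and 35 further hypoxia targets, 33 of them measured. With indacaterol at 2 h, 2 of 19 regulators rose and none fell, where 1.2% of all genes were called (195 up and 42 down). They were SIAH2, an ubiquitin ligase that destroys EGLN proteins (0.51, adjusted p = 0.00123 by limma), and CITED4, a relative of the coactivator-binding CITED2 (1.19, adjusted p = 0.00645). HIF1A, EPAS1 and ARNT, which encode the factors, were not called against vehicle in any treatment or time. The EPAS1 differences were 0.38 with both drugs at 6 h (adjusted p = 0.208), 0.32 with indacaterol at 6 h (0.753) and 0.41 with both drugs at 2 h (0.144), and with the replicate block, which these arrays allow, the adjusted p were 1.39e-04, 0.00277 and 3.20e-05. Against 1 h, EPAS1 rose at 6 h with both drugs (0.52, adjusted p = 0.00865 by limma, lost without replicate 1 or 2) and with indacaterol (0.47, 0.0267, lost without any one replicate). Over the 4 treatments it rose at 2 h (0.28, adjusted p = 0.0025, lost without replicate 2) and at 6 h (0.37, 2.06e-05, held without each replicate in turn). At 18 h over the 4 treatments, 2 of 19 regulators rose and 2 fell, against 18.5% of all genes. ARNT (0.15, adjusted p = 0.0418 by limma, lost without replicate 2 or 4) and SIAH2 (3.25e-06) rose. CITED2 (1.62e-09) and CITED4 (3.60e-06) fell, and like SIAH2 they held without each replicate in turn. CITED2 also fell at 6 h over the 4 treatments (0.0258, lost without replicate 1 or 4). Of the glycolysis list, SLC2A3 alone was called at 2 h without the block, so no enzyme on the list passed that test at the time PFKFB3 rose. With the block, 2 genes of the list rose with both drugs and 3 with indacaterol at 2 h, enzymes among them. The indacaterol and vehicle arrays of 2 h did not meet the criterion for pairing. The list's median change with indacaterol at 2 h was 0.057, against -0.00018 for all genes.

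Of the 33 further targets, 3 rose and 0 fell with indacaterol at 2 h, against the same 1.2% of all genes. BHLHE40, a transcriptional repressor, changed by 1.12 (adjusted p = 0.0067 by limma), IGFBP3, which binds insulin-like growth factors, by 0.92 (adjusted p = 3.72e-04), and INSIG2, a brake on sterol synthesis, by 0.47 (adjusted p = 0.00772). The median change of the list was 0.13. BHLHE40 was also called at 1 h (1.55, adjusted p = 1.60e-04) and IGFBP3 at 6 h (0.70, adjusted p = 0.0445). With both drugs the same 2, 1 and 3 genes of the lists were called at 2 h, against the same vehicle arrays. With the replicate block, which the arrays with both drugs allow at 2 h, 3 regulators rose and 1 fell, 2 glycolysis genes rose and 0 fell, and 7 further targets rose and 1 fell. The share of all genes called with the block is not given here, so these block counts have no background. Of the calls without the block, IGFBP3 at 2 h held without each replicate in turn, for both drugs and for indacaterol. With indacaterol, BHLHE40 at 1 h, SIAH2 and SLC2A3 were lost without replicate 1, INSIG2 without 1 or 2, BHLHE40 at 2 h without 1 or 4, CITED4 without 1, 2 or 4, and IGFBP3 at 6 h without any one of the 4. With both drugs, CITED4 was lost without 1, 2 or 4, SIAH2 without 1, 2 or 3, INSIG2 without 1, 2 or 4, and BHLHE40 without 1 or 4.

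By 18 h, on vehicle arrays, 3 of 33 further targets rose and 1 fell relative to 1 h, where 1.58% of all genes were called (113 up and 200 down). With the replicate block, which these arrays allow and whose share over all genes is not given here, 7 rose and 3 fell. The 4 called without it were VLDLR, a lipoprotein receptor (0.63, adjusted p = 0.0015 by limma), the histone demethylase KDM3A (0.47, adjusted p = 0.00491), the collagen prolyl hydroxylase P4HA1 (0.38, adjusted p = 0.0423) and, falling, the mTOR inhibitor gene DDIT4 (-0.72, adjusted p = 0.0192). On the GSK arrays the same 4 genes were called, with changes of 0.67, 0.51, 0.46 and -0.74. The regulator SIAH2 also rose, by 0.37 with vehicle and 0.42 with GSK. On vehicle arrays each of these 5 calls was lost without replicate 4, those of VLDLR, P4HA1, DDIT4 and SIAH2 also without 1, those of P4HA1, DDIT4 and SIAH2 also without 2, and SIAH2 also without 3. On GSK arrays VLDLR held without each replicate in turn, KDM3A was lost without 4, P4HA1 and DDIT4 without 1, 2 or 4, and SIAH2 without 2. At 2 h KDM3A had been below its 1 h level, by -0.44 with vehicle (adjusted p = 0.0421, lost without any one replicate) and -0.51 with GSK (adjusted p = 0.0111, lost without replicate 1 or 2).

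Averaged over the 4 treatments, 9 of 23 glycolysis genes rose by 18 h and 0 fell, where 3665 of 19775 genes were called (18.5%, with 2258 up and 1407 down). With the replicate block, which the arrays of every treatment allow at 18 h, 14 rose and 1 fell. The 18.5% does not apply to that fit, whose share over all genes is not given here. The greatest changes were those of ALDOC (0.40, an aldolase), HK2 (0.36, hexokinase), ENO2 (0.34, an enolase) and PFKL (0.27, phosphofructokinase), with adjusted p between 2.03e-05 and 0.0143 by limma. ALDOC and PFKL held without each replicate in turn, HK2 was lost without replicate 2 or 4, and ENO2 without 1, 2 or 4. Of 33 further targets, 14 rose and 7 fell at 18 h with the block. Without it 9 rose and 2 fell, against the same 18.5% of all genes. VLDLR (adjusted p = 3.04e-12 by limma) and KDM3A (8.43e-12) rose the most. Those that fell were DDIT4 (-0.80, adjusted p = 4.74e-10) and the transferrin receptor gene TFRC (-0.79, adjusted p = 5.99e-05). All of these calls held without each replicate in turn, whereas P4HA2, which also rose, was lost without replicate 4. PFKFB3 was not called over time, with a change of 0.093 at 18 h (95% interval -0.079 to 0.27), except that its change at 6 h over the 4 treatments, -0.14, had an adjusted p of 0.335 and passed without replicate 4 (-0.28, adjusted p = 0.0261).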

How the data were processed

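RNA of 64 BEAS-2B samples was measured on 3' expression arrays. The deposited values are probe-set intensities on a linear scale that the authors made with PLIER in Transcriptome Analysis Console 4, per the submitters' processing notes; background and normalization settings are not given in the sources used here. They were used without further normalization. Gene names came from the platform annotation. Among probe sets with 1 gene symbol, the brightest on average stood for its gene, and tests ran on log2(intensity + 16).

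A linear model with the 16 groups was fitted to all 19775 genes in limma 3.58.1 (R 4.3.3, 48 residual degrees of freedom), with Benjamini-Hochberg adjustment over all genes, after the code had been tested on simulated data. All 10 member genes are named whatever their values; of each other list, genes called in a comparison are named, at most 4 by size of change, and the 5 genes most like PFKFB3 by correlation over group means of genes with a signal of at least 100 in some group. The members and lists were chosen with earlier results of these data known. Comparisons over time within indacaterol, within both drugs and over the mean of the 4 treatments were added after the values were seen. Replicate numbers come from the labels; they were taken as pairing the arrays where every same-numbered pair of deviations from the group means correlated above 0.1, which held in 23 of 28 comparisons. Alternatives were pseudocounts of 1 and 64, quantile normalization, a signal filter, every probe set on its own, the replicate block and each replicate left out. Promoter sequences are RefSeq's, build GRCh38.p14. CA9 was not analysed here.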

Additional observations from a re-analysis of the deposited data

Results flagged for a closer look

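Within groups of 4 arrays, 11 of 144 member-by-group sets held 1 array whose gap to the nearest other exceeded the share of the range that Dixon's test allows at 95%. Chance flags about 1 in 20 groups. Replicate 3 held 9 of the 11. EGLN3 was high on replicate 3 of indacaterol at 18 h (480.5), GSK at 1 h (373), GSK at 18 h (430.4) and vehicle at 1 h (453). ADM was low there with indacaterol at 6 h (1003) and with GSK at 2 h (1281). VEGFA was high with both drugs at 1 h (2835), SLC2A1 with both drugs at 18 h (2436) and NDRG1 with indacaterol at 1 h (3412), again on replicate 3. The other 2 were BNIP3 on replicate 1 of both drugs at 18 h (5695) and PFKFB4 on replicate 4 of vehicle at 6 h (1028). The VEGFA array is the highest of its group in the 1 h comparison with vehicle, and the PFKFB4 array that of the vehicle group in the 6 h comparison.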

How the results depend on the processing

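No result reversed under any alternative. Leaving out each replicate in turn gave 0 to 2 members called for indacaterol minus vehicle at 2 h, 0 to 1 for both drugs minus vehicle at 2 h, 0 to 1 for indacaterol at 6 h minus 1 h, 0 to 1 for both drugs at 6 h minus 1 h and 0 to 1 at 18 h minus 1 h, 1 to 2 for the mean of the 4 treatments at 6 h, 0 to 4 at 18 h, and 0 to 1 for vehicle between times. The log2 changes against vehicle at 2 h then ran between 0.61 and 0.79 for PFKFB3 and between 1.24 and 1.38 for ANKRD37 with indacaterol, and between 0.58 and 0.70 for PFKFB3 and between 1.22 and 1.31 for ANKRD37 with both drugs. ANKRD37 with indacaterol at 2 h missed the threshold with a pseudocount of 1 (1.36, adjusted p = 0.0521), a pseudocount of 64 (1.17, 0.0511) or every probe set fitted on its own (median 0.75 over its 2 sets, 0.0553 for the brighter one), which left 1 member called each time. With both drugs at 2 h it passed with quantile normalization (1.29, 0.0445) or only genes of a signal of at least 100 (1.28, 0.0462), giving 2 members. Fitting every probe set left 0 members for indacaterol at 6 h minus 1 h. With the replicate number as a block, the members called numbered 1 for indacaterol and 1 for both drugs against vehicle at 1 h, 2 for both drugs at 2 h (ANKRD37 1.28, 5.44e-07) and 2 at 6 h, 1 for vehicle at 6 h and 1 at 18 h, 1 for GSK at 2 h, 3 for indacaterol at 6 h and 1 at 18 h, 2 for both drugs at 6 h and 2 at 18 h, 3 for the mean of the 4 treatments at 2 h and 3 at 6 h (the later times all against 1 h), 2 for the indacaterol effect between times and 4 for vehicle between times. The block together with leaving out replicate 3 gave 1, 1, 2 (ANKRD37 1.29, 8.61e-05) and 1 for the same first 4 comparisons, 1 and 1 for vehicle at 6 and 18 h, 1 for GSK at 6 h, 2 and 2 for indacaterol at 6 and 18 h, 2 for both drugs at 18 h, 3 and 3 for the mean at 2 and 6 h, and 1 and 4 for the 2 tests between times. The shares of all genes called with the block are not given here, so the block counts have no background. The cause of these shifts was not tested. In 5 of 28 comparisons the arrays did not meet the criterion for pairing: indacaterol, and GSK, minus vehicle at 2 h, both drugs minus vehicle and minus indacaterol at 1 h, and vehicle at 2 h minus 1 h. They missed it on their lowest same-numbered correlation, between -0.053 and 0.091, while their highest lay between 0.73 and 0.86. There the block gave ANKRD37 with both drugs at 1 h an adjusted p of 6.1e-05 and SLC2A1 with indacaterol at 2 h one of 0.0409, and over the mean of the 4 treatments at 2 h ADM had 0.044 and SLC2A1 0.0241. Apart from these and the calls named in the report, the block changed no call of a member. Dim probe sets and 4 arrays a group limit what could be called.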
